A study of Mus musculus with 4 samples.

Results

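The 10 genes described here mark the formative and primed states of pluripotency: Fgf5, Otx2, Pou3f1, Tcf15, Sall2, Fgf15, Pim2, Cdh2, Tead2 and Lef1. They were taken by mouse symbol from the 43496 Ensembl genes of the deposited count table, and each symbol matched 1 gene. RNA-seq compared mouse E14 embryonic stem cells transfected with pSuper puro carrying a MERVL shRNA (the labels also write MuERVL) with cells given a random shRNA. MERVL is an endogenous retrovirus of which the 2-cell embryo and rare embryonic stem cells make RNA. All cells carried the strain label 12910la and grew on gelatin in serum with LIF, and the genotype labels read MERVL knocked down for the MERVL shRNA libraries and wild type for the random shRNA libraries. Cells received 1000 ng of plasmid and, from 24 h after transfection, 1 µg/ml puromycin for 4 days. Each group had 2 libraries. The knockdown was transient, and no label states that replicates came from separate cultures, so the spread behind the p-values may be technical.

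Embryonic stem cells kept in LIF resemble the naive epiblast before implantation. When they leave that state they pass through a formative stage, in which the factor Otx2 redirects Oct4 (Pou5f1) to new enhancers and Fgf5 and Pou3f1 are switched on. They can then become primed, like the epiblast after implantation, where FGF, Wnt and adhesion genes differ from the naive state. In serum cultures single cells vary along this path, and a bulk library cannot tell more cells in a state from more RNA per cell.

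Libraries held 11628887 to 16067854 estimated counts. All 7 embryonic stem cell markers examined were present, with Pou5f1 at 1396 and 1574 CPM (counts scaled to library size by TMM) in the MERVL shRNA libraries and 1288 and 1244 CPM in the random shRNA libraries. Random shRNA replicate 1 stood apart. Over all features its Pearson r on log2 CPM was 0.963 with random shRNA replicate 2 and 0.958 and 0.944 with MERVL shRNA replicates 1 and 2, whereas the MERVL shRNA libraries had 0.989 with each other (features are not independent replicates). The targeted element, summed over 2277 copies, was at 1162 and 572.3 CPM in the MERVL shRNA libraries, against 4661 and 1431 CPM in the random shRNA libraries. Values of the 10 genes and medians of gene lists are therefore also given with libraries left out where a sign or the size depended on it.

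The formative and primed genes did not move as a group. Otx2, Tcf15 and Cdh2 were higher in each MERVL shRNA library than in either random shRNA library, Pim2, Fgf15, Pou3f1 and Tead2 were lower in both, and Sall2 and Lef1 overlapped. Fgf5 was close to undetected. None of the 9 genes that passed the filter on low counts was called by the edgeR quasi-likelihood test (adjusted p from 0.338 to 0.993), against 0.00612% of the 16353 features tested, which is the single gene Catip. That gene is named only because it was the single call, chosen after its values were seen. At an unadjusted p under 0.05, 2 of the 9 passed, Otx2 and Pim2, against 13.6% of all features. DESeq2 and limma-voom also called 0 of them, against 0.837% and 0.00% of features. Without random shRNA replicate 1 edgeR called Otx2 and Fgf15 (14.0% of features), and without random shRNA replicate 2 it called Otx2, Tcf15 and Pim2 (32.3% of features). Groups that did not overlap were found for 7 of the 9, with 3 higher and 4 lower, against 46.2% of all features (22.1% higher and 24.1% lower). The nearest libraries of the groups differed by as little as 0.188% for Pou3f1 and 1.58% for Tead2. The median log2 fold change (MERVL shRNA over random shRNA) over the 9 was -0.02, beside -0.01 over all features, and dropping single libraries gave medians of -0.15 to 0.13.

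**Figure D1:**
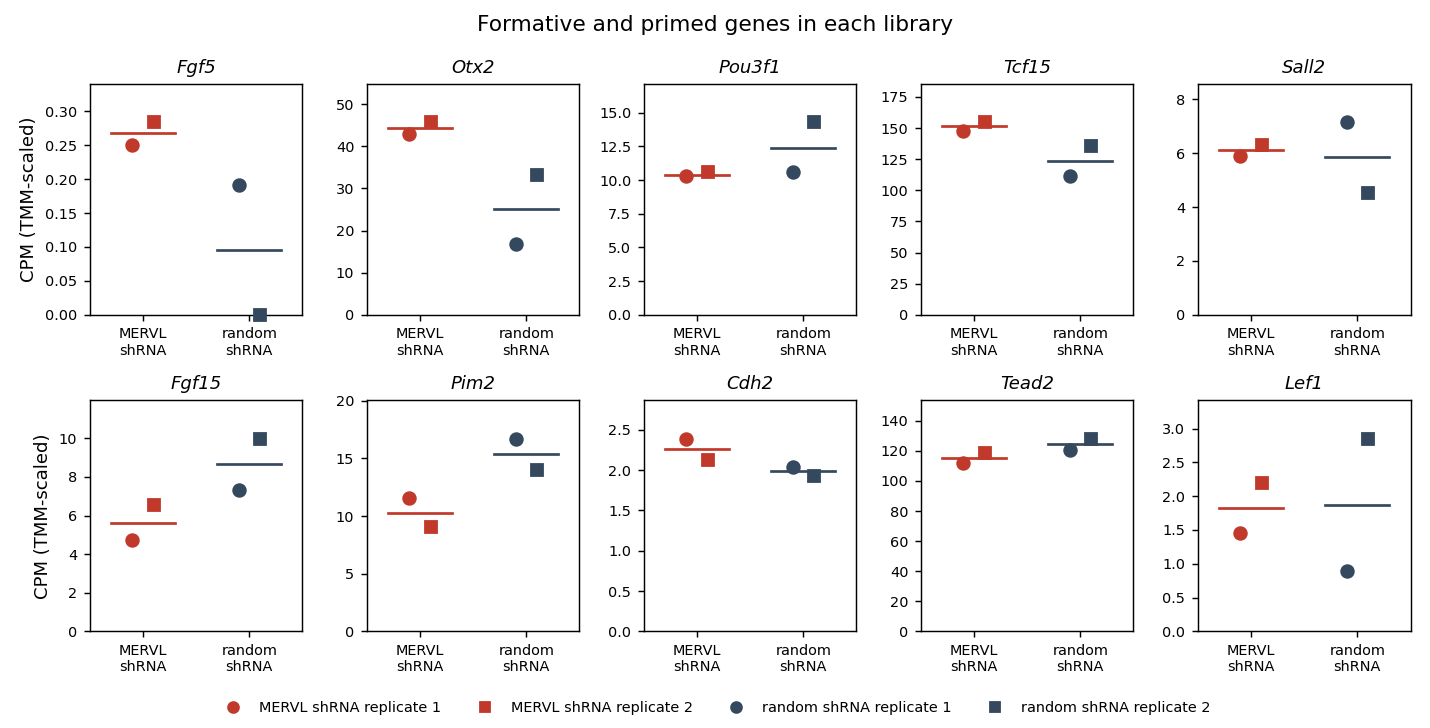
CPM (TMM-scaled, linear axes from 0) of each formative or primed gene in MERVL shRNA and random shRNA libraries. Circles are replicate 1, squares replicate 2 and lines group means; among the 9 tested genes, Lef1 and Otx2 have the widest gaps between the random shRNA libraries on the log2 scale (-1.67 and -0.98, replicate 1 over replicate 2).

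Otx2 encodes the homeobox factor that opens the formative programme. It was at 42.9 and 45.7 CPM in the MERVL shRNA libraries, against 16.8 and 33.2 CPM in the random shRNA libraries. Both MERVL shRNA libraries lay above both random shRNA libraries, the nearest pair by 29.3%, while the random shRNA libraries were themselves 0.98 apart on the log2 scale. Group means were 44.3 ± 1.95 CPM with MERVL shRNA and 25.0 ± 11.6 CPM with random shRNA (SD, n = 2 each). The log2 fold change was 0.83 ± 0.30 (SE), a fold of 1.78, which did not pass (edgeR adjusted p = 0.338). It was 0.42 without random shRNA replicate 1 and 1.41 without random shRNA replicate 2. The size of the difference therefore depended on which random shRNA library was used. In both fits the lone library is assumed to vary like the other group. The gene spans chr14:48657677-48673819 (GRCm38, minus strand). Its exons share 154 bases with the antisense gene Otx2os1. That gene had 5 and 3 estimated counts in the MERVL shRNA libraries and 1 and 1 in the random shRNA libraries. The exons of Otx2 also share 168 bases with Gm49154, on the same strand, which was not analysed here. The sources used here do not say whether counting used strand, which would not separate Gm49154.

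The bases before 2 of the 4 Otx2 start sites in RefSeq (GRCm38.p6) are shown because Otx2 had the largest difference. The first is the start whose next bases open 6 annotated transcripts, and the second is the only Otx2 window of these with a match to a motif searched. The 250 bases before each start were searched on both strands for TCAAAG (bound by TCF and LEF factors), GGATTA (OTX factors), GGAATG (TEAD factors), ATTTGCAT (the POU octamer) and CCGGAAG (ETS factors), and capitals mark a match. No 2 matches overlapped.
Otx2, chr14:48667509-48667758, minus strand: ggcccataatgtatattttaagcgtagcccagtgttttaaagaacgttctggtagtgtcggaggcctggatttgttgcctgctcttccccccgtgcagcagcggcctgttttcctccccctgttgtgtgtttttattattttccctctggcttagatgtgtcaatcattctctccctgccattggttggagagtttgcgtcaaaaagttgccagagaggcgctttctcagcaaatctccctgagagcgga
Otx2, chr14:48665110-48665359, minus strand: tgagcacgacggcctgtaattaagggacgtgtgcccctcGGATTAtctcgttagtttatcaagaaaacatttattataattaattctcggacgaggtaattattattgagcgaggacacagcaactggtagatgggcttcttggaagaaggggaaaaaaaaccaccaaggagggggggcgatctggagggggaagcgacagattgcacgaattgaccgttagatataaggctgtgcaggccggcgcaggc
The second window holds GGATTA at base -211 from the start, a motif found in 6.25% of 32851 such windows. The GC content was 49.2% in the first and 48.4% in the second, beside a median of 52.4% over all windows. A match describes the letters and not a bound site.

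Tcf15 is a bHLH factor that primes embryonic stem cells for differentiation and later acts in somites. Its levels were 148.0 and 154.7 CPM in the MERVL shRNA libraries, against 111.5 and 135.8 CPM in the random shRNA libraries. The groups did not overlap, the nearest libraries differed by 8.99%, and random shRNA replicate 1 was again the lowest. Means were 151.3 ± 4.74 CPM with MERVL shRNA and 123.6 ± 17.1 CPM with random shRNA (SD, n = 2 each), a log2 fold change of 0.29 ± 0.15 (edgeR adjusted p = 0.466). Without random shRNA replicate 2 the value was 0.46, and without random shRNA replicate 1 it was 0.16.

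In CPM, Otx2 and Tcf15 had the same order of libraries. The lowest was random shRNA replicate 1, then random shRNA replicate 2, MERVL shRNA replicate 1 and MERVL shRNA replicate 2. That order was shared by 7.64% of all features. The log2 gaps of the MERVL shRNA pair (replicate 1 over replicate 2) were only -0.09 for Otx2 and -0.06 for Tcf15. In the deposited normalized scores random shRNA replicate 2 was the lowest instead. Random shRNA replicates 1 and 2 scored 367 and 340 for Otx2 and 1823 and 1781 for Tcf15. The order in CPM, not that in scores, is the reverse of the order of the MERVL total. It is also the reverse for the summed 8 measured markers of 2-cell-like cells. These summed to 265.6 and 153.1 CPM in the MERVL shRNA libraries and 1328 and 352.5 CPM in the random shRNA libraries. All 8 of those markers had negative log2 fold changes, none was called and none was at 0 in every library. Their median was -2.15 with all libraries, -1.02 without random shRNA replicate 1 and -2.77 without random shRNA replicate 2. Their part in the Otx2 and Tcf15 values was not tested.

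Pou3f1, the POU factor also called Oct6, is switched on with Otx2 in formative cells. It was at 10.3 and 10.6 CPM in the MERVL shRNA libraries, against 10.6 and 14.3 CPM in the random shRNA libraries. Only random shRNA replicate 2 stood out, and the other 3 libraries were within 0.47 of it on the log2 scale. The log2 fold change was -0.25 ± 0.23 (edgeR adjusted p = 0.694). It was -0.01 without random shRNA replicate 2 and -0.44 without random shRNA replicate 1. Its exon shares 330 bases with the antisense gene Gm2164, which had at most 2.5 estimated counts in any library.

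Sall2 encodes a zinc finger factor of the spalt family. Its levels were 5.91 and 6.31 CPM in the MERVL shRNA libraries, against 7.15 and 4.53 CPM in the random shRNA libraries. The MERVL shRNA libraries fell between the random shRNA libraries, and the log2 fold change of 0.06 ± 0.32 (edgeR adjusted p = 0.955) turned to -0.21 without random shRNA replicate 2 and was 0.44 without random shRNA replicate 1.

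Tead2 and Lef1 are the DNA-binding ends of signalling pathways, Tead2 as a partner of the co-activator Yap1 and Lef1 as a partner of beta-catenin in Wnt signalling. Tead2 was the steadiest of the 9 tested, at 111.9 and 118.8 CPM in the MERVL shRNA libraries and 120.7 and 128.1 CPM in the random shRNA libraries. The libraries spanned 0.20 on the log2 scale, and the log2 fold change was -0.11 ± 0.13 (edgeR adjusted p = 0.782). Lef1 was the least steady of those at a mean of at least 1 CPM, with a span of 1.60 on the log2 scale. It was at 1.45 and 2.20 CPM in the MERVL shRNA libraries, both between the 0.893 and 2.85 CPM of random shRNA replicates 1 and 2. The log2 fold change was -0.02 ± 0.62 (edgeR adjusted p = 0.993), and it was -0.65 without random shRNA replicate 1 and 1.03 without random shRNA replicate 2. Its exons share 1208 bases with the antisense gene Gm43352, not analysed here.

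Among 8813 protein-coding genes with a mean of at least 10 CPM, those nearest to Lef1 in pattern over the 4 libraries were Calca, Ifitm1 and Ephx1, by Euclidean distance of centred log2 CPM (0.203, 0.307 and 0.330). Calca had 9.05 and 12.1 CPM in the MERVL shRNA libraries and 6.0 and 15.6 CPM in the random shRNA libraries, so it too lay widest apart between the random shRNA libraries.

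The 2 FGF ligands of the list behaved differently. Fgf5, the classical marker of the epiblast after implantation, had 4 and 4 estimated counts in the MERVL shRNA libraries and 3 and 0 in the random shRNA libraries. These correspond to 0.251 and 0.284 CPM with MERVL shRNA and to 0.191 CPM in random shRNA replicate 1. In random shRNA replicate 2 a count of 0 allows up to 0.252 CPM, taken as 3 counts of that library. The ratio of the summed counts, corrected for library size, MERVL shRNA over random shRNA, was 2.45 with an exact 95% interval of 0.589 to 14.4 that covers counting error only. No difference was detectable at this depth, and Fgf5 did not pass the filter, so it is not among the 9 genes tested.

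Fgf15, the mouse counterpart of human FGF19, is an ileal hormone in the adult and is also expressed in the early neural plate. Its levels were 4.71 and 6.53 CPM in the MERVL shRNA libraries, against 7.34 and 9.98 CPM in the random shRNA libraries. The groups did not overlap, and replicate 2 was the higher library in each, by 0.47 (MERVL shRNA) and 0.44 (random shRNA) on the log2 scale. The log2 fold change was -0.62 ± 0.30 (edgeR adjusted p = 0.428). It was -0.83 without random shRNA replicate 1 and -0.38 without random shRNA replicate 2, and -0.38 also without MERVL shRNA replicate 1. Its exons share 761 bases with the antisense gene Gm26793, which had 17 and 13 estimated counts in the MERVL shRNA libraries and 19 and 15 in the random shRNA libraries, so reads of the 2 genes may not be told apart.

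Pim2 encodes a serine/threonine kinase that supports survival and growth. It was at 11.6 and 9.01 CPM in the MERVL shRNA libraries, against 16.7 and 14.0 CPM in the random shRNA libraries. Both MERVL shRNA libraries lay below both random shRNA libraries, and in the nearest pair the random shRNA library was 21.1% above the MERVL shRNA library, while the gaps within the groups were 0.36 (MERVL shRNA) and 0.26 (random shRNA) on the log2 scale. Means were 10.3 ± 1.81 CPM with MERVL shRNA and 15.4 ± 1.92 CPM with random shRNA (SD, n = 2 each). The log2 fold change was -0.58 ± 0.22, a fold of 0.67 (edgeR adjusted p = 0.347). It was -0.68 without random shRNA replicate 2, and lay between -0.74 and -0.40 with any other single library left out. The bases before its start are shown because Pim2, with Fgf15, had the largest negative difference and because the window holds a rare motif.
Pim2, chrX:7878056-7878305, plus strand: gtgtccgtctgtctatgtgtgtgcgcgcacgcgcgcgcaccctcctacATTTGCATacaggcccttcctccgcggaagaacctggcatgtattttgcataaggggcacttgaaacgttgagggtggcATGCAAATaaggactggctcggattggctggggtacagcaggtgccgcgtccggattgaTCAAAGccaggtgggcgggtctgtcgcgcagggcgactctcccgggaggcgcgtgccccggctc
Capitals mark, in order, the octamer ATTTGCAT at base -202, its reverse complement at base -123 and TCAAAG at base -64. The octamer, the motif bound by POU factors, was found in 1.60% of all windows and TCAAAG in 13.8%. Promoter rows were found for 6 of the 10 genes.

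Cdh2 encodes N-cadherin, which replaces E-cadherin (Cdh1) as cells leave the epiblast. It was at 2.39 and 2.13 CPM in the MERVL shRNA libraries, against 2.04 and 1.93 CPM in the random shRNA libraries. The nearest libraries differed by 4.25% and the log2 fold change was 0.19 ± 0.37 (edgeR adjusted p = 0.871). Cdh1 itself was at 280.2 and 293.2 CPM in the MERVL shRNA libraries and 299.1 and 314.2 CPM in the random shRNA libraries (log2 fold change -0.10 ± 0.14, edgeR adjusted p = 0.816). Cdh2 is also made by neural and mesenchymal cells. Of 12 neural progenitor markers, 3 (Neurog2, Fabp7 and Olig2) were at 0 in every library, and the list summed to 126.4 and 141.5 CPM with MERVL shRNA and 175.2 and 115.6 CPM with random shRNA. Within it Tubb3 was at 76.7 and 90.7 CPM (MERVL shRNA) and 129.6 and 70.8 CPM (random shRNA). Sox1 was at 12.9 and 13.4 CPM (MERVL shRNA) and 5.23 and 3.27 CPM (random shRNA), higher without overlap as Cdh2 was, and Nes at 9.62 and 9.08 CPM (MERVL shRNA) and 22.6 and 14.6 CPM (random shRNA), lower without overlap. Of 11 fibroblast markers, 4 (Col3a1, Postn, Dcn and Lum) were at 0 in every library, and the list summed to 20.9 and 17.7 CPM with MERVL shRNA and 36.5 and 43.6 CPM with random shRNA, of which Thy1 made up 8.67 and 6.88 CPM with MERVL shRNA and 23.1 and 28.8 CPM with random shRNA. Their part in the Cdh2 values was not tested.

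**Figure D2:**
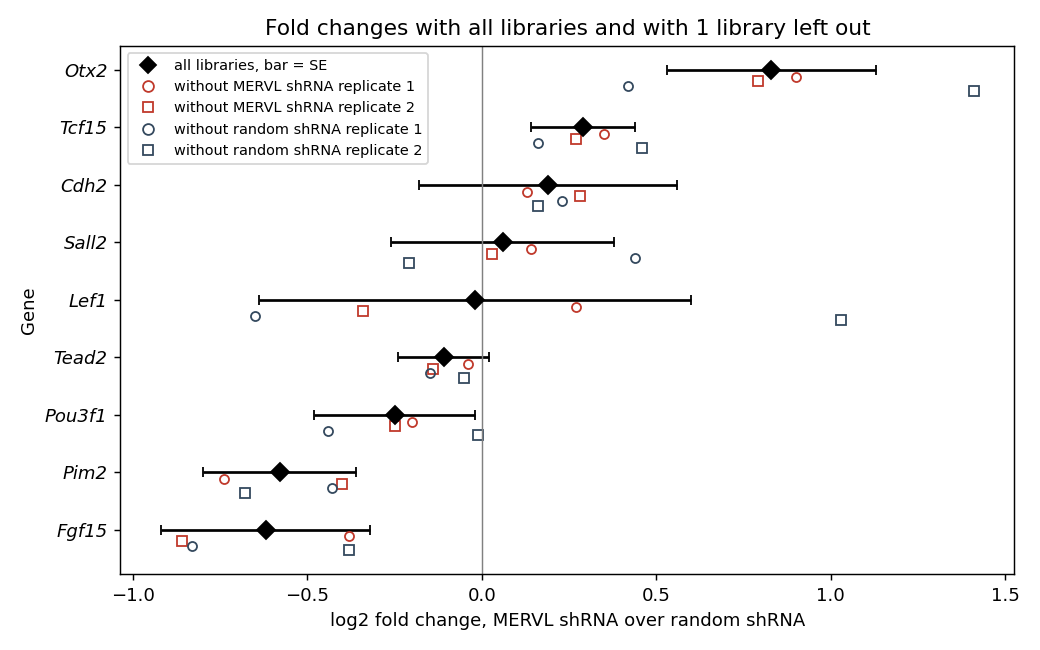
Log2 fold change (MERVL shRNA over random shRNA) of the 9 tested genes, with all libraries (black diamonds, bars are SE) and with 1 library left out (open symbols). Leaving out a random shRNA library moves Otx2 between 0.42 and 1.41 and Lef1 between -0.65 and 1.03, while Tead2 stays between -0.15 and -0.04.

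Seen side by side, the median gap within the random shRNA pair was larger than the median difference between groups. Among the 9 genes the median absolute gap on log2 CPM was 0.43 between the random shRNA libraries and 0.09 between the MERVL shRNA libraries, and the median absolute difference between groups was 0.23. Over all features these medians were 0.34, 0.14 and 0.23. The random shRNA gap was larger than the difference between groups for 4 of the 9 genes (44.4%) and for 61.5% of all features.

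The second deposited table, whose scores the authors made in a way not given in the sources used here, shows a narrower random shRNA pair. It lists 9 of the 10 genes, without Fgf5. Otx2 had scores of 590 and 646 in the MERVL shRNA libraries and 367 and 340 in the random shRNA libraries, so the log2 gap of the random pair (replicate 1 over replicate 2) was 0.11 in scores against -0.98 in CPM. For Lef1 that gap was -0.06 in scores against -1.67 in CPM, and for Sall2 0.02 against 0.66. Within the MERVL shRNA pair the gaps barely differed between the tables, for example -0.51 in scores and -0.47 in CPM for Fgf15. A limma test on log2(score + 1) called 3 of the 9, against 27.6% of the 17823 features: Otx2 (log2 fold change 0.80, adjusted p = 0.0244), Tcf15 (0.25, adjusted p = 0.0324) and Pou3f1 (-0.28, adjusted p = 0.0387). These p-values rest on scores in which the random shRNA pair is closer together than in the counts.

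**Figure D3:**
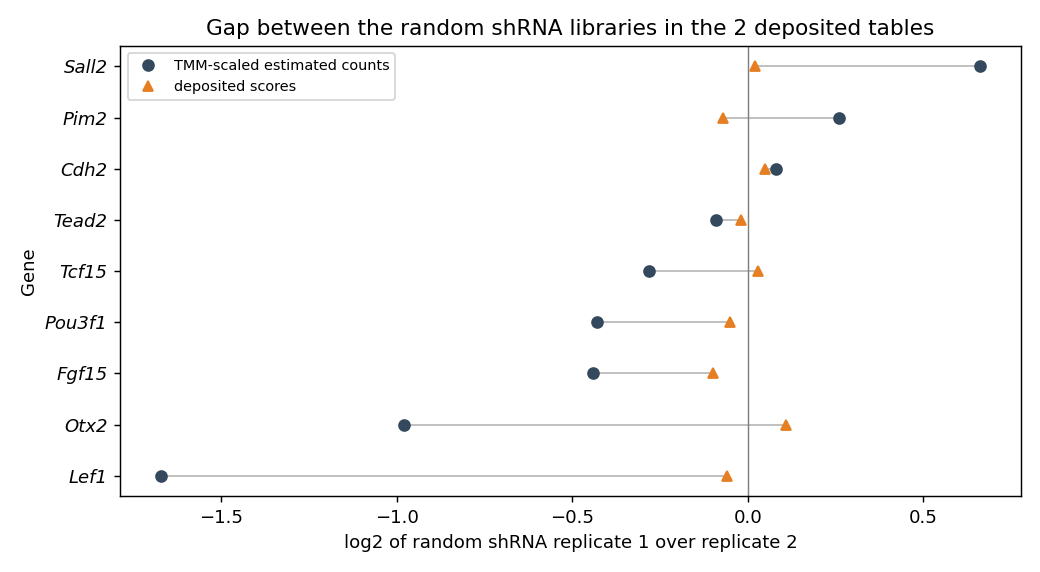
Log2 ratio of random shRNA replicate 1 over replicate 2 for 9 genes, from TMM-scaled estimated counts (circles) and from the deposited scores (triangles). The gaps run from -1.67 to 0.66 in the counts and from -0.10 to 0.11 in the scores.

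Per length of exon, the 10 genes covered more than 3 orders of magnitude. The mean over the 4 libraries, in CPM per kb, was 140.0 for Tcf15, 25.0 for Tead2, 8.21 for Otx2, 4.59 for Pim2, 2.97 for Pou3f1, 2.33 for Fgf15, 1.10 for Sall2, 0.263 for Cdh2, 0.210 for Lef1 and 0.0726 for Fgf5. Tcf15 stood at the 98.7th percentile of 21506 protein-coding genes and Tead2 at the 90.7th, whereas Cdh2, Lef1 and Fgf5 were at or below the 39.1st. Ranges over the libraries were apart between Tcf15 and Tead2, Tead2 and Otx2, Fgf15 and Sall2, and Sall2 and Cdh2. They overlapped between Otx2 and Pim2, Pim2 and Pou3f1, Pou3f1 and Fgf15, Cdh2 and Lef1, and Lef1 and Fgf5.

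**Figure D4:**
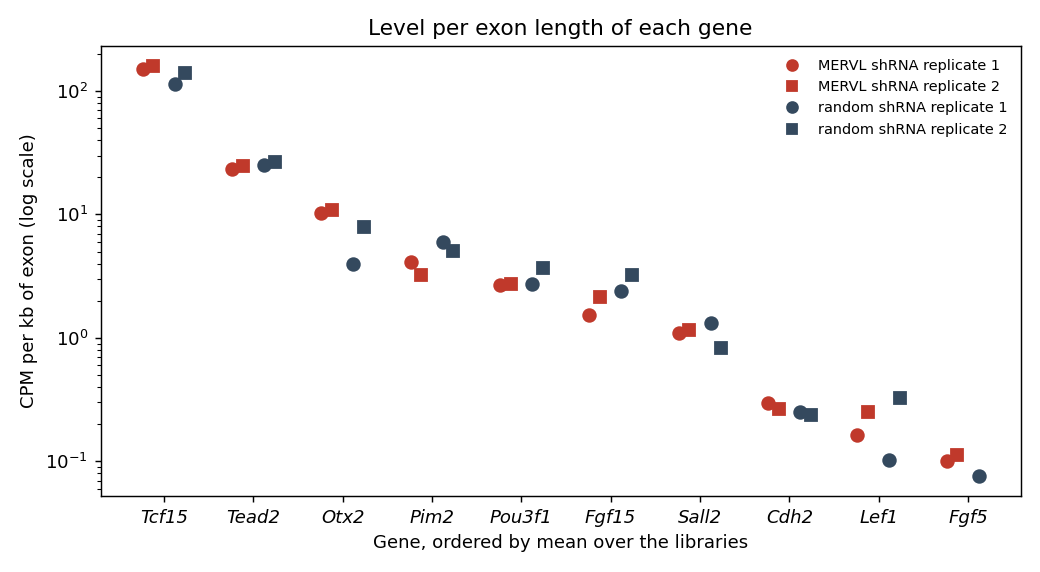
Level of each gene in CPM per kb of exon (log axis) in each library, ordered by the mean. Tcf15 lies above 100 CPM per kb in every library and Cdh2, Lef1 and Fgf5 below 1; the value of 0 for Fgf5 in random shRNA replicate 2 cannot be drawn on a log axis.

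Within their gene families, some of the 10 were the most abundant of the relatives listed and others were not. Otx2 averaged 8.21 CPM per kb over the libraries, against 0.0755 for Otx1. Tead2 was the most abundant TEAD factor, at 23.4 and 24.8 CPM per kb in the MERVL shRNA libraries and 25.2 and 26.8 in the random shRNA libraries, above Tead1 with 7.96 and 6.64 (MERVL shRNA) and 9.77 and 8.01 (random shRNA). Lef1 lay far below its relative Tcf7, which had 17.2 and 19.0 CPM per kb with MERVL shRNA and 19.7 and 23.1 with random shRNA. Sall2 lay below Sall1, the spalt factor with 56.8 and 55.5 CPM per kb with MERVL shRNA and 26.4 and 30.7 with random shRNA, and below Sall4, with means over the libraries of 1.10, 42.3 and 34.1 CPM per kb for Sall2, Sall1 and Sall4. Pim2 lay below both other PIM kinases, with means of 4.59 CPM per kb for Pim2, 29.6 for Pim1 and 112.0 for Pim3. Fgf4, the ligand that embryonic stem cells themselves make, averaged 73.0 CPM per kb, against 2.33 for Fgf15. Cdh1 averaged 64.9 CPM per kb, against 0.263 for Cdh2.

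None of the relatives tested was called. Sall1 was at 298.8 and 292.1 CPM in the MERVL shRNA libraries, against 139.2 and 161.6 CPM in the random shRNA libraries (log2 fold change 0.97 ± 0.15, edgeR adjusted p = 0.281). Fgf4 had 280.0 and 284.0 CPM with MERVL shRNA, against 176.3 and 192.2 CPM with random shRNA (0.61 ± 0.14, edgeR adjusted p = 0.329). Pim1 was at 75.7 and 83.2 CPM with MERVL shRNA and 137.6 and 101.4 CPM with random shRNA (-0.59 ± 0.18, edgeR adjusted p = 0.329), on the same side as Pim2. In the list of 18 relatives 12 were tested, 7 were positive and 5 negative in log2 fold change, with a median of 0.10 that was -0.02 and -0.01 without MERVL shRNA replicates 1 and 2.

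Further genes of formative and primed cells were as divided as the 10. Of 28 listed, 23 were tested, 10 were positive and 13 negative in log2 fold change with a median of -0.09, and none was called. Groups did not overlap for 7 higher and 8 lower of the 23, against 22.1% and 24.1% of all features. Sox4, a factor of early lineages, had 0.47 ± 0.14. Sall3 had 1.28 ± 0.52, at 19.0 and 19.9 CPM (MERVL shRNA) and 12.5 and 3.27 CPM (random shRNA). Dnmt3b, a DNA methyltransferase that is high in formative cells, was at 54.5 and 56.0 CPM in the MERVL shRNA libraries and 69.6 and 57.7 CPM in the random shRNA libraries (-0.21 ± 0.15, edgeR adjusted p = 0.613). The median of this list was 0.20 without random shRNA replicate 1 and -0.16 without random shRNA replicate 2, so its sign followed that choice.

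Naive genes, at the other end of the transition, had positive log2 fold changes in 19 of 19 tested (20 listed), with a median of 0.26 and 13 of them higher without overlap, against 7948 positive of 16353 features and 22.1% higher without overlap. The nearest libraries of the groups differed by as little as 0.113% for Dppa5a and 0.283% for Esrrb, and by as much as 61.0% for Nr0b1. Between random shRNA replicates 1 and 2 the median difference of the 19 genes was 0.25 on log2(CPM + 1). None of the 19 was called, and the median log2 fold change ran from 0.17 to 0.44 with a single library left out. Nr0b1, a nuclear receptor of naive cells, had 1.07 ± 0.25 and the DNA demethylase Tet2 0.77 ± 0.20, while Zfp42, Esrrb and Nanog had 0.20 ± 0.17, 0.24 ± 0.19 and 0.04 ± 0.24. In the core list of 8 genes 4 were positive and 4 negative, with 0.23 ± 0.16 for Pou5f1, 0.20 ± 0.17 for Sox2 and -0.25 ± 0.35 for Sall4.

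**Figure D5:**
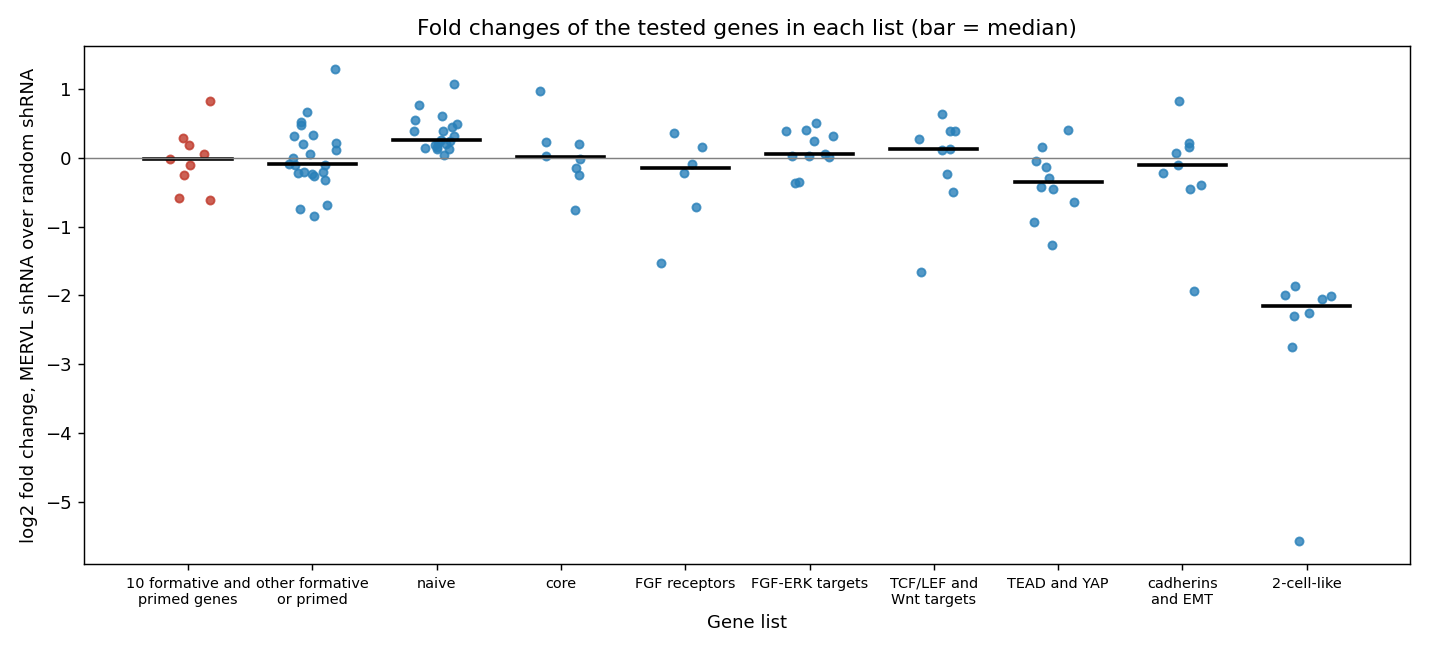
Log2 fold change (MERVL shRNA over random shRNA) of each tested gene in 10 lists; points are genes and black bars medians. With all libraries, the 10 formative and primed genes (red, 9 tested) have a median of -0.02, naive genes one of 0.26 and 2-cell-like markers one of -2.15.

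Receptors and downstream genes of the ligands and factors were examined next. Of 7 FGF receptors and cofactors, 6 were tested, 2 were positive, 4 negative and none called, with a median of -0.16 (-0.21 to -0.07 with a library left out). Fgfr1, the main FGF receptor of these cells, was at 64.9 and 65.3 CPM in the MERVL shRNA libraries and 70.8 and 81.5 CPM in the random shRNA libraries (-0.22 ± 0.14, edgeR adjusted p = 0.542). Fgfr3 had -1.53 ± 0.40 and the decoy-like receptor Fgfrl1 -0.71 ± 0.25. Among 11 genes induced by FGF-ERK signalling 9 were positive and 2 negative, against 7948 positive of 16353 features. None was called and the median was 0.05 (0.01 to 0.29 with a library left out). The phosphatase Dusp6 had 0.50 ± 0.13, and the inhibitors Spry4 and Spry1 had 0.39 ± 0.15 and 0.40 ± 0.16. Of the other positive genes, Etv4, Spred1, Il17rd and Spred2 had 0.05 or less. The 2 negative genes, Dusp5 and Dusp4, had -0.37 ± 0.35 and -0.35 ± 0.27.

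For Lef1, the list of TCF factors, beta-catenin and Wnt targets had 9 tested members, 6 positive and 3 negative, with none called and a median of 0.13 (0.03 to 0.28 with a library left out). Tcf7l1, the repressor that promotes exit from the naive state, was at 22.0 and 24.4 CPM in the MERVL shRNA libraries and 22.9 and 15.3 CPM in the random shRNA libraries (0.27 ± 0.23, edgeR adjusted p = 0.660). The secreted Wnt inhibitor Notum had 0.64 ± 0.22 and the Wnt target Sp5 -1.66 ± 0.64, with Sp5 below 1 CPM in every library. For Tead2, the list of TEAD factors, co-activators and targets had 10 tested members, 2 positive and 8 negative, with none called and a median of -0.36. The co-activator Wwtr1 (TAZ) was at 31.1 and 30.7 CPM in the MERVL shRNA libraries and 60.8 and 56.7 CPM in the random shRNA libraries (-0.93 ± 0.14, edgeR adjusted p = 0.263). The targets Ccn2 and Amotl2 had -1.26 ± 0.35 and -0.65 ± 0.19, and Tead1 and Tead4 had -0.29 ± 0.17 and 0.16 ± 0.19. The TEAD median moved to -0.07 without random shRNA replicate 1 and to -0.57 without random shRNA replicate 2. For Cdh2, the list of cadherins and factors of epithelial-mesenchymal transition had 9 tested members, 4 positive and 5 negative, with none called and a median of -0.10 (-0.16 to 0.03 with a library left out, positive without random shRNA replicate 2). Snai1, a repressor of Cdh1, had -1.93 ± 0.62, at 1.38 and 1.56 CPM (MERVL shRNA) and 8.68 and 2.52 CPM (random shRNA). Vim had -0.40 ± 0.14 and Twist1 0.82 ± 0.34.

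Markers of other lineages were summed in the same way. The 9 mesoderm markers summed to 11.3 and 12.8 CPM in the MERVL shRNA libraries and 15.2 and 20.0 CPM in the random shRNA libraries. Of these, Eomes made up 6.66 and 8.16 CPM (MERVL shRNA) and 9.31 and 14.6 CPM (random shRNA). The 10 trophectoderm markers summed to 36.6 and 36.4 CPM (MERVL shRNA) and 37.9 and 53.3 CPM (random shRNA). Within them Krt8 was at 16.5 and 17.4 CPM (MERVL shRNA) and 12.8 and 17.1 CPM (random shRNA). Of the 6 trophectoderm genes tested, 2 were positive and 4 negative in log2 fold change, and none was called. Gata2 had -1.99 ± 0.52, at only 0.377 and 0.355 CPM (MERVL shRNA) and 1.85 and 1.09 CPM (random shRNA). Tfap2a had -1.14 ± 0.39 and Esx1 -1.03 ± 0.27 (edgeR adjusted p = 0.329 for each, as for Gata2). The 2 positive genes, Krt7 and Krt8, had 0.55 ± 0.81 and 0.18 ± 0.21. The 10 primitive endoderm markers summed to 215.2 and 204.6 CPM (MERVL shRNA) and 209.9 and 260.8 CPM (random shRNA). Within the endoderm list Sparc, a matrix protein, was at 93.8 and 95.4 CPM in the MERVL shRNA libraries and 114.7 and 156.1 CPM in the random shRNA libraries, which at 30.4 CPM per kb over the 4 libraries is above the level of Tead2. Their part in the values above was not tested.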

How the data were processed

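Of the tables the authors deposited, one holds estimated counts for 43496 Ensembl genes and 2277 MERVL copies. The other, also deposited, holds normalized scores for 17823 features, made in a way not given in the sources used here. The submitters' processing notes name Trim Galore, HISAT2 and build mm10. All columns were mapped to a sample. Estimated counts were rounded and tested with edgeR 4.0.16 (R 4.3.3): TMM scaling, filterByExpr, quasi-likelihood F test, genes and copies together, 2-sided, without a replicate term, Benjamini-Hochberg over 16353 features, threshold 0.05. SEs were derived from the F statistic. The fit was checked on simulated counts. DESeq2 1.42.0, limma 3.58.1 (voom, and scores with a mean of at least 1), other scalings and filters, a replicate block and each library left out in turn were alternatives. Within-group pairs were not duplicate files (chi-square per degree of freedom, over features with at least 30 counts in the pair, 6.82 with MERVL shRNA and 37.5 with random shRNA). Names, positions and exon lengths came from GENCODE on GRCm38, the assembly also called mm10; promoters came from RefSeq. Members and lists were chosen with earlier results of these data known. From each list, up to 3 genes with the smallest p were named, besides a fixed set; 1 gene under this rule is not reported here. An exact permutation test of 2 against 2 libraries cannot go below 0.333, so none was used. Intervals and floors cover counting error only.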

Additional observations from a re-analysis of the deposited data

How the results depend on the processing

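Of the 144 values of the 9 genes under 16 alternatives, 123 kept their direction and their side of the threshold, 13 kept their direction and passed, and 8 changed sign. All sign changes were in Lef1 (0.22 in limma-voom, 0.02 on the scores with either pseudocount, 0.00 with no filter, 0.10 with a replicate block, -0.65 to 1.03 with a library left out) and Sall2 (-0.21 to 0.44 with a library left out); the cause was not tested. The edgeR test called 1 gene with all libraries, 737 with no filter, 362 with a replicate block and 2 to 4800 with a library left out; DESeq2 called 174, limma-voom 0 and limma on the scores 4739 (4705 with a pseudocount of 0.5). Of the 10 formative and primed genes edgeR called 0 with all libraries, 1 with no filter (4.75% of features) and 1 with the block (4.51%), Otx2 each time. On the scores limma called 3 with either pseudocount, against 27.6% of features with a pseudocount of 1 and 27.3% with 0.5. The median log2 fold change was 0.09 with the block and -0.15 to 0.13 with a library left out. The labels do not say what a replicate number shares; across features the replicate 1 minus replicate 2 differences of the MERVL shRNA and random shRNA pairs had r = 0.25. No scaling moved the median of all features beyond -0.07. With 2 libraries a group, and Fgf5 at 4 counts or fewer, small differences are beyond this depth.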
